A study of Mus musculus with 6 samples.

Results

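The tight junction genes of the mouse cochlea described here are 9 genes chosen by name from 51802 gene symbols: the claudins *Cldn5*, *Cldn9*, *Cldn11* and *Cldn14*, the tricellular junction genes *Marveld2*, *Ildr1* and *Lsr*, the occludin gene *Ocln* and the scaffold gene *Tjp1*. The rule for choosing them uses no measured value, although earlier results of these data were known when it was made. Each was followed by summing its transcripts in bulk RNA-seq of whole cochleae, from 3 wildtype and 3 *Pou4f3(Δ/+)* samples taken at 2 months. Both groups were on the C57BL/6J background (C57/BL6J in the labels), a strain known to carry the *Cdh23(ahl)* hearing loss allele, and the wildtype mice were littermates. The *Pou4f3(Δ/+)* mice carry 1 knock-in allele, with an 8-bp deletion and a C-to-T change near the end of the *Pou4f3* coding sequence and a loxP-flanked Neo cassette, beside 1 wildtype allele in every cell. *Pou4f3* encodes a hair cell transcription factor, and the mice model the dominant deafness DFNA15. The labels do not say how many cochleae or mice made 1 sample, so a p-value measures the spread between these samples only.

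Tight junctions seal the space between neighbouring epithelial cells and keep the potassium-rich endolymph of the cochlear duct apart from the perilymph. Claudins form the strands between a pair of cells, while tricellulin (*Marveld2*) and the angulins (*Ildr1*, *Lsr*) close the points where a trio of cells meets, and the ZO-1 scaffold (*Tjp1*) ties the strands to actin. Loss of *Cldn9*, *Cldn11*, *Cldn14*, *Marveld2*, *Ildr1* or *Ocln* is known to cause hearing loss in mice.

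The 9 genes lay over a wide range of abundance and for none was a genotype difference called by edgeR's quasi-likelihood test. *Cldn11* led at a mean of 70.0 FPKM (fragment counts set relative to transcript length and library size) and *Marveld2* closed the list, a 36.3-fold span. In *Pou4f3(Δ/+)*, 5 genes had lower and 4 had higher fitted levels, with a median log2 fold change of -0.03 against -0.00274 over all 17136 genes tested. Of the 9, 0 had an adjusted p under 0.05, by edgeR, DESeq2 or any other alternative run. In the edgeR fit of all 6 samples, 0 of the 9 also had an unadjusted p under 0.05. Over all genes edgeR called 0, or 0.0%, and an unadjusted p under 0.05 was reached by 7.64%. All 9 of the 95% intervals lay within a 2-fold difference in either direction, and 7 of the 9 within 1.5-fold.

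Values below are in the order of wildtype replicates 3, 4 and 5 and of *Pou4f3(Δ/+)* replicates 1, 2 and 3. Summed counts were 14295069 to 17696784 per sample. *Pou4f3* itself had 68, 72 and 88 counts in wildtype and 66, 97 and 52 in *Pou4f3(Δ/+)*, which come from both alleles together and give no check of the labels. *Pou4f3(Δ/+)* replicates 1 and 2 stood apart from the other 4 samples: each of 9 B cell markers, among them *Cd79a* and *Cd79b*, was highest in these samples, and the summed B cell list was 282 and 323 FPKM there, 162 in *Pou4f3(Δ/+)* replicate 3 and 127 to 156 in wildtype. The part of this B cell RNA in the results below was not tested, and log2 fold changes without both replicates are given for each of the 9 genes. The hair cell list, with *Myo7a*, *Otof* and *Ocm*, was present in every sample, at 65.7 to 67.4 FPKM in wildtype and 58.3 to 69.6 in *Pou4f3(Δ/+)*. Epithelial markers such as *Epcam* summed to 78.4 to 109 and 79.9 to 91.6 FPKM, strial intermediate cell markers to 175 to 210 and 174 to 197, with 6 of 6 tested lower, and osteoblast markers to 669 to 902 and 596 to 747, in wildtype and *Pou4f3(Δ/+)* respectively. Of 8 osteoblast markers 5 were lower, and 3 of these, *Sp7*, *Col1a1* and *Phex*, had an unadjusted p under 0.05 (edgeR adjusted p = 0.643 each). Because these are whole cochleae, fewer cells of a type and less RNA per cell cannot be told apart.

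The claudins are short proteins with a shared signature in the first extracellular loop, the part that meets the neighbouring cell, and it is shown here because it is what makes these 4 genes a family. The DNA runs from the first to the last codon of the signature, 5′ to 3′ on the coding strand of GRCm38, from the GENCODE M21 transcripts. Capitals mark the codons of its tryptophan, its glycine-leucine-tryptophan run and its pair of cysteines. *Cldn5* lies at chr16:18777083-18777187 (+), *Cldn9* at chr17:23683458-23683562 (-), *Cldn11* at chr3:31150237-31150344 (+) and *Cldn14* at chr16:93919765-93919869 (-), each within coding sequence.
Cldn5: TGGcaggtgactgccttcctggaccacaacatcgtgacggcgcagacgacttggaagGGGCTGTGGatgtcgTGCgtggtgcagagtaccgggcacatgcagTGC
Cldn9: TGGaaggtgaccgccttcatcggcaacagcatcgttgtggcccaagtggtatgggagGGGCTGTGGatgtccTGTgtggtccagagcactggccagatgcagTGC
Cldn11: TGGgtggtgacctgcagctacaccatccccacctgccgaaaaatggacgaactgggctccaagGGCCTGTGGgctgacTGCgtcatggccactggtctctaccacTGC
Cldn14: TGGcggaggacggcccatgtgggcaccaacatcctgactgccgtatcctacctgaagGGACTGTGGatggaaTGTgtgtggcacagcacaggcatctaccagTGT
The *Cldn11* stretch has 108 bases and the other 3 have 105. The 4 coding sequences are 654, 651, 621 and 717 bases long in the same order. Their aligned coding bases were 61.9% to 66.4% identical, the lowest for *Cldn5* with *Cldn14* and the highest for *Cldn5* with *Cldn9*.

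*Cldn11* (ENSMUSG00000037625, chromosome 3 from 31149920 to 31164324) forms the basal cell barrier of the stria vascularis and also the strands of central myelin. It was read at 68.3, 73.8 and 89.2 FPKM in wildtype and at 56.0, 55.3 and 77.5 FPKM in *Pou4f3(Δ/+)*. *Pou4f3(Δ/+)* replicates 1 and 2 were the lowest of the 6 samples, and *Pou4f3(Δ/+)* replicate 3 lay inside the wildtype range. The means were 77.1 ± 10.8 and 62.9 ± 12.7 FPKM (SD, n = 3 each), with a log2 fold change of -0.30 (SE 0.14, 95% interval -0.62 to 0.03, edgeR adjusted p = 0.649). It was the largest difference in size among the 9, and it rested on those replicates: without *Pou4f3(Δ/+)* replicates 1 and 2 the log2 fold change was -0.01. Without *Pou4f3(Δ/+)* replicate 3 it was -0.46 (edgeR adjusted p = 0.110), and without wildtype replicate 5 it was -0.18. Its coefficient of variation over the 6 samples was 18.7%, and counting error alone would give 2.18%.

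Some other genes and lists were also low in the samples where *Cldn11* was low. The summed markers of strial marginal cells, the potassium-secreting cells of the stria, were 426 to 447 FPKM in wildtype and 345, 287 and 397 in *Pou4f3(Δ/+)*. Here *Pou4f3(Δ/+)* replicate 3 was below the wildtype range as well, whereas for *Cldn11* it lay inside that range. Of 8 tested strial marginal markers 7 were lower, and 3, the potassium channel genes *Kcnq1* and *Kcne1* and the sodium pump subunit *Atp1b2*, had an unadjusted p under 0.05 (edgeR, log2 fold changes of -0.45, -0.84 and -0.49, adjusted p = 0.643 each). Of all genes 50.6% were lower and 7.64% had an unadjusted p under 0.05. In FPKM *Kcnq1*, *Kcne1*, *Atp1b2* and *Lrp2* were below every wildtype sample in each *Pou4f3(Δ/+)* sample, and the other strial marginal markers overlapped. Groups without overlap in FPKM were found for 12.1% of all genes. Schwann cell markers summed to 479 to 571 FPKM in wildtype and 401, 358 and 544 in *Pou4f3(Δ/+)*, with 6 of 6 lower. Supporting cell markers had no common direction, with 4 of 8 lower, 4 higher and a median log2 fold change of 0.0031. Their sum of 376 to 447 FPKM in wildtype and 325, 306 and 438 in *Pou4f3(Δ/+)* was mostly that of the gap junction genes *Gjb2* and *Gjb6*, which were each lowest in *Pou4f3(Δ/+)* replicates 1 and 2. The oligodendrocyte sum did not have the order of *Cldn11*. It ran from 35.8 FPKM in wildtype replicate 5, where *Cldn11* was highest, to 79.7 in wildtype replicate 4. The sum was mostly *Mobp*, at 20.1 to 48.6 FPKM, and *Opalin* was listed at 0 in every sample. *Mag*, as 1 of the 8 genes listed, was lowest in *Pou4f3(Δ/+)* replicates 1 and 2 (9.32 and 8.10 FPKM against 9.68 to 17.9 in wildtype). The part of these cell types in the *Cldn11* values was not tested.

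**Figure D1:**
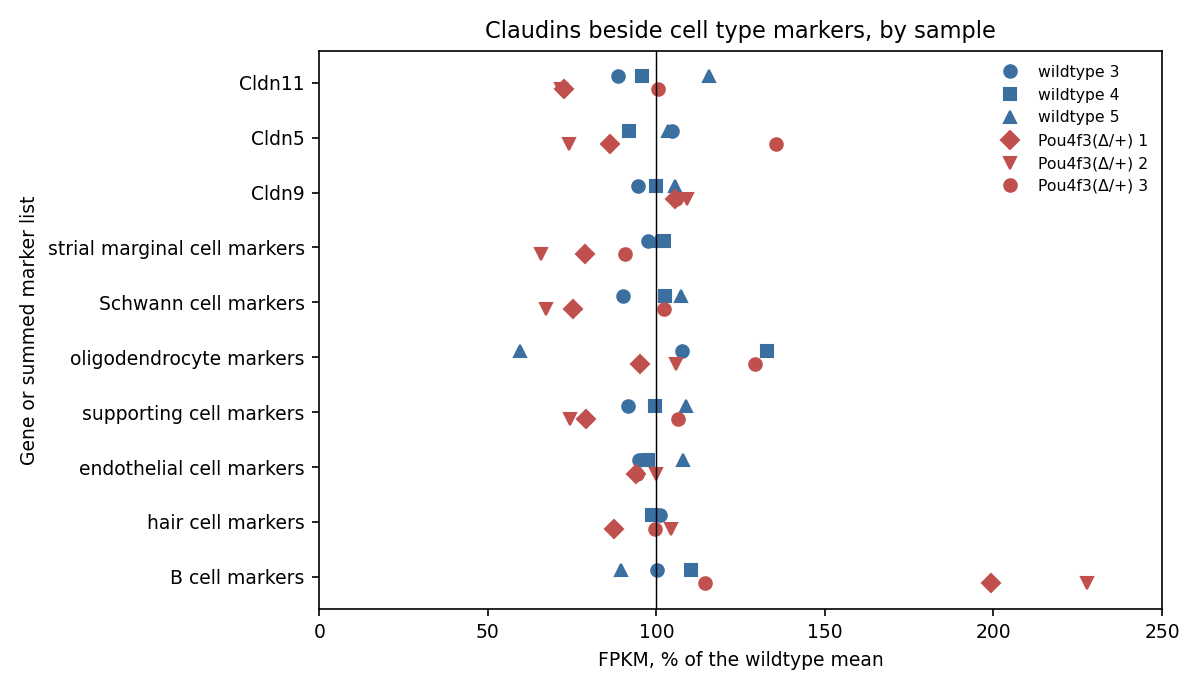
FPKM of *Cldn11*, *Cldn5* and *Cldn9*, and summed FPKM of 7 cell type marker lists, each as a percent of its wildtype mean (x axis), with 1 point for each of 3 wildtype (blue) and 3 *Pou4f3(Δ/+)* (red) samples. *Pou4f3(Δ/+)* replicates 1 and 2 are low for *Cldn11*, *Cldn5* and the strial marginal and Schwann cell lists, as is the supporting cell sum, which *Gjb2* and *Gjb6* carry, and they are high for the B cell list (282 and 323 FPKM against 127 to 156 in wildtype). For the strial marginal list *Pou4f3(Δ/+)* replicate 3 is below wildtype as well (397 FPKM against 426 to 447).

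*Cldn9* (ENSMUSG00000066720, chromosome 17 from 23682584 to 23684026), a claudin of the reticular lamina around hair cells, was the steadiest of the 9. Its level was 20.8, 21.99 and 23.2 FPKM in wildtype and 23.2, 24.0 and 23.3 FPKM in *Pou4f3(Δ/+)*. The groups touched without crossing in FPKM, with wildtype replicate 5 at 23.21 and *Pou4f3(Δ/+)* replicate 1 at 23.23, and overlapped in CPM, counts scaled to library size without regard to length. That is 1 of 9 genes without overlap in FPKM, where the share of all genes was 12.1% (6.02% higher in *Pou4f3(Δ/+)*, as *Cldn9* was), and 0 of 9 in CPM, where it was 12.7%. The means were 22.01 ± 1.19 and 23.5 ± 0.440 FPKM (SD, n = 3 each), with a log2 fold change of 0.09 (SE 0.09, 95% interval -0.10 to 0.29, edgeR adjusted p = 0.792), and 0.060 without *Pou4f3(Δ/+)* replicates 1 and 2. The lowest value with 1 sample left out was 0.058, without wildtype replicate 3. Its coefficient of variation of 5.05% was close to the 4.36% that counting error alone gives for 451 to 590 counts. *Cldn6*, 138 bases away on the other strand, was at most at 0.72 FPKM.

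*Cldn14* (ENSMUSG00000047109, chromosome 16 from 93919031 to 94008837), the claudin gene behind the recessive deafness DFNB29, was far less abundant. It was read at 3.66, 3.22 and 3.33 FPKM in wildtype and at 2.60, 3.09 and 3.65 FPKM in *Pou4f3(Δ/+)*, from only 67 to 92 counts. *Pou4f3(Δ/+)* replicate 1 was lowest and *Pou4f3(Δ/+)* replicate 3 reached the wildtype values. The log2 fold change was -0.13 (SE 0.20, 95% interval -0.59 to 0.33, edgeR adjusted p = 0.886), and 0.093 without *Pou4f3(Δ/+)* replicates 1 and 2. With 1 sample left out it ran from -0.24 (without *Pou4f3(Δ/+)* replicate 3) to -0.012 (without *Pou4f3(Δ/+)* replicate 1). The spread of 12.1% over the samples was close to the counting error of 11.5%. *Cldn9* thus exceeded *Cldn14* in every sample, by 5.69 to 8.93 times, and the ratio overlapped between genotypes (log2 difference 0.24, two-sided exact permutation p = 0.3, where 3 samples against 3 cannot go below 0.1).

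*Cldn5* (ENSMUSG00000041378, chromosome 16 from 18776847 to 18778262) is the claudin of the endothelial barrier, here that of the cochlear capillaries. Its level was 12.6, 11.03 and 12.4 FPKM in wildtype and 10.4, 8.90 and 16.3 FPKM in *Pou4f3(Δ/+)*. The *Pou4f3(Δ/+)* samples held both the lowest and the highest values of the 6, with wildtype between them. The log2 fold change was -0.03 (SE 0.20, 95% interval -0.49 to 0.43, edgeR adjusted p = 0.975), and it was 0.42 without *Pou4f3(Δ/+)* replicates 1 and 2. Without *Pou4f3(Δ/+)* replicate 3 it was -0.31, and without *Pou4f3(Δ/+)* replicate 2 it was 0.13. Its coefficient of variation of 21.3% was the largest of the 9, against 6.08% from counting. The summed endothelial list, with *Pecam1*, *Cdh5* and *Emcn*, had a narrower range of 164 to 189 FPKM. *Cldn5* relative to that list without *Esam*, a junction gene itself, was 0.0690 to 0.0812 in wildtype and 0.0673, 0.0553 and 0.107 in *Pou4f3(Δ/+)* (two-sided exact permutation p = 1).

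**Figure D2:**
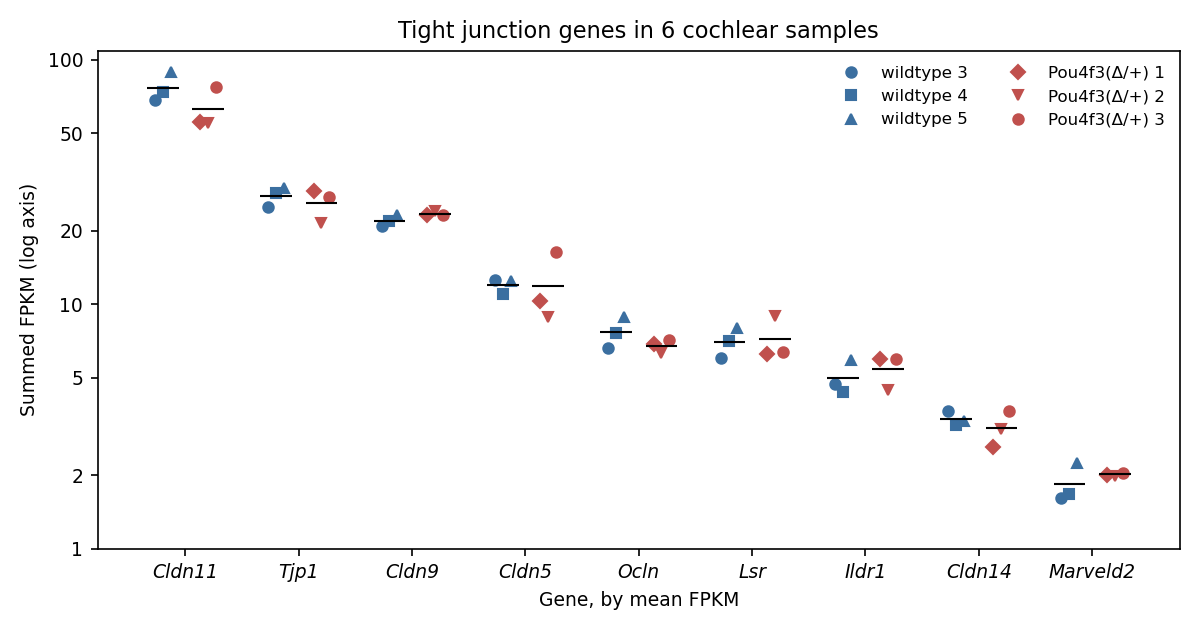
Summed FPKM of the 9 genes (log axis) in 3 wildtype samples (blue) and 3 *Pou4f3(Δ/+)* samples (red), 1 symbol for each sample and a black bar for the group mean. The genes fall from *Cldn11* at 55.3 to 89.2 FPKM to *Marveld2* at 1.61 to 2.24 FPKM, and the genotypes overlap for every gene but *Cldn9*, where they touch.

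The tricellular genes were at the lower end. *Lsr* (ENSMUSG00000001247, chromosome 7 from 30957770 to 30973464), which encodes angulin-1, was read at 6.01, 7.07 and 8.0 FPKM in wildtype and at 6.26, 8.99 and 6.39 FPKM in *Pou4f3(Δ/+)*. Only *Pou4f3(Δ/+)* replicate 2 lay above the wildtype range, and the log2 fold change was 0.05 (SE 0.18, 95% interval -0.37 to 0.47, edgeR adjusted p = 0.955). It was -0.16 without *Pou4f3(Δ/+)* replicate 2 and also -0.16 without both replicates 1 and 2, and 0.15 without wildtype replicate 5. The antisense gene *Gm4673* overlaps *Lsr* and was listed at 1.77 to 2.53 FPKM, and since a strand-marking protocol is not stated, reads of the overlap cannot be told apart.

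*Ildr1* (ENSMUSG00000022900, chromosome 16 from 36693978 to 36726804) encodes angulin-2, the angulin of hair cell and supporting cell corners. It was read at 4.71, 4.40 and 5.94 FPKM in wildtype and at 5.96, 4.47 and 5.95 FPKM in *Pou4f3(Δ/+)*. High and low samples were found in both groups, and the log2 fold change was 0.15 (SE 0.17, 95% interval -0.23 to 0.53, edgeR adjusted p = 0.816), and 0.28 without *Pou4f3(Δ/+)* replicates 1 and 2. With 1 sample left out it ran from 0.059 (without wildtype replicate 4) to 0.30 (without wildtype replicate 5). *Lsr* exceeded *Ildr1* in every sample, by 1.05 to 2.01 times in FPKM, but not in counts, where the ratio ran from 0.734 to 1.42.

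*Marveld2* (ENSMUSG00000021636, chromosome 13 from 100595957 to 100616971), the tricellulin gene of the deafness DFNB49, was the least abundant of the 9 in FPKM. Its level was 1.61, 1.68 and 2.24 FPKM in wildtype and 2.01, 1.99 and 2.05 FPKM in *Pou4f3(Δ/+)*, from 67 to 105 counts. The *Pou4f3(Δ/+)* values were nearly alike and lay inside the wildtype range. The log2 fold change was 0.08 (SE 0.19, 95% interval -0.36 to 0.51, edgeR adjusted p = 0.932), and -0.0025 without *Pou4f3(Δ/+)* replicates 1 and 2. With 1 sample left out it ran from 0.0034 (without wildtype replicate 4) to 0.21 (without wildtype replicate 5).

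*Ocln* (ENSMUSG00000021638, chromosome 13 from 100496507 to 100552718), like *Marveld2* a gene of the MARVEL family, lies on the same strand 43238 bases from it. It was read at 6.64, 7.62 and 8.89 FPKM in wildtype and at 6.86, 6.31 and 7.18 FPKM in *Pou4f3(Δ/+)*. The *Pou4f3(Δ/+)* samples sat in the lower part of the wildtype range or just under it. The means were 7.72 ± 1.13 and 6.78 ± 0.440 FPKM (SD, n = 3 each), and edgeR gave a log2 fold change of -0.16 (SE 0.11, 95% interval -0.42 to 0.10, edgeR adjusted p = 0.739). Without *Pou4f3(Δ/+)* replicates 1 and 2 it was -0.15, and leaving out 1 sample moved it between -0.23 (without wildtype replicate 3) and -0.061 (without wildtype replicate 5).

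Set against *Marveld2* within each sample, *Ocln* was 4.12, 4.54 and 3.97 times as abundant in wildtype and 3.41, 3.17 and 3.50 times in *Pou4f3(Δ/+)*. The groups did not overlap, and the log2 ratio was 0.32 lower in *Pou4f3(Δ/+)* on average (log2 difference -0.32, two-sided exact permutation p = 0.1, the smallest that 3 against 3 allows, Benjamini-Hochberg adjusted p = 0.40 over 6 ratios). On counts the log2 difference was -0.24 and the groups again did not overlap. It was the 1 ratio of the 6 without overlap, in a design where no ratio could reach 0.05. The other 5 ratios overlapped between the genotypes, among them *Cldn11* to *Cldn5* (log2 difference -0.24, two-sided exact permutation p = 0.2) and the sum of *Cldn9*, *Cldn14* and *Ildr1* to the hair cell list (0.12, exact permutation p = 0.2).

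*Tjp1* (ENSMUSG00000030516, chromosome 7 from 65296165 to 65527781) encodes ZO-1, the scaffold found at epithelial and endothelial junctions alike. Its level was 25.1, 28.5 and 30.0 FPKM in wildtype and 29.2, 21.5 and 27.5 FPKM in *Pou4f3(Δ/+)*. *Pou4f3(Δ/+)* replicate 2 was the lowest sample and the other *Pou4f3(Δ/+)* samples lay within the wildtype range. The means were 27.9 ± 2.53 and 26.1 ± 4.02 FPKM (SD, n = 3 each), and edgeR gave a log2 fold change of -0.13 (SE 0.11, 95% interval -0.37 to 0.11, edgeR adjusted p = 0.768), and -0.083 without *Pou4f3(Δ/+)* replicates 1 and 2. Leaving out 1 sample moved it between -0.20 (without *Pou4f3(Δ/+)* replicate 1 or wildtype replicate 3) and -0.039 (without *Pou4f3(Δ/+)* replicate 2). With 2203 to 3339 counts it was one of the best measured of the 9.

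**Figure D3:**
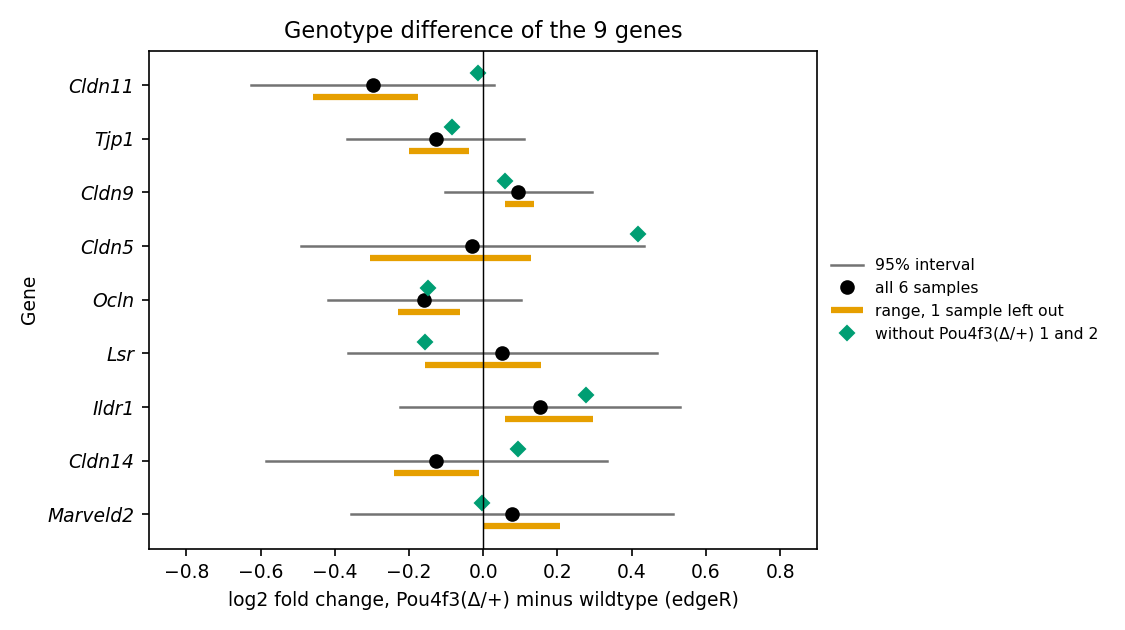
log2 fold change of *Pou4f3(Δ/+)* against wildtype for the 9 genes (x axis): black points from all 6 samples with 95% intervals as grey lines (edgeR), orange bars for the range when 1 sample is left out, and green diamonds without *Pou4f3(Δ/+)* replicates 1 and 2. Every grey interval spans 0, and the diamonds of *Cldn11* (-0.01) and *Cldn5* (0.42) lie farthest from their points.

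In order of mean FPKM the genes ran *Cldn11*, *Tjp1*, *Cldn9*, *Cldn5*, *Ocln*, *Lsr*, *Ildr1*, *Cldn14* and *Marveld2*. The ranges over the 6 samples overlapped for *Tjp1* with *Cldn9* and for *Ocln* with *Lsr*, and each of these orders held in 5 of 6 samples. The other 6 neighbouring pairs did not overlap. The gap was narrow for *Cldn5* over *Ocln* (lowest 8.90 against highest 8.89 FPKM) and for *Lsr* over *Ildr1* (6.01 against 5.96). In *Pou4f3(Δ/+)* replicate 2 *Lsr* exceeded *Cldn5*, at 8.99 against 8.90 FPKM. *Cldn11* alone held 44.7% of the summed FPKM of the 9, *Tjp1* 17.2% and *Cldn9* 14.5%. Among all tested genes, *Cldn11* stood at percentile 94.1 of mean FPKM, *Cldn9* at 76.1, *Ocln* at 45.0 and *Marveld2* at 21.6. The wildtype samples alone gave the same order, and the *Pou4f3(Δ/+)* samples alone exchanged *Ocln* and *Lsr*. Within the claudin family *Cldn11* ranked first with 32.7% of all claudin FPKM, *Cldn9* the third with 10.6%, *Cldn5* the sixth and *Cldn14* the twelfth.

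*Cldn5*, *Cldn9* and *Cldn11* were listed with 1 transcript each, and the other 6 genes with several. In all, 33 transcripts were listed, 27 were above 0 in at least 1 sample, and of the 18 that passed the filter 0 were called by edgeR between genotypes (0.0% of 38347 transcripts, smallest unadjusted p of the 18 was 0.0908, and 4.14% of all transcripts had an unadjusted p under 0.05). Of 12 transcript shares tested, the smallest two-sided exact permutation p was 0.2, and the smallest this design allows is 0.1. The 4 frame-keeping coding exons by which main transcripts of *Tjp1*, *Lsr* and *Ildr1* differ are shown, whole and in lower case, 5′ to 3′ on the coding strand of GRCm38, since they are what changes in the protein between isoforms. They are *Tjp1* exon 20 of 28 (240 bases, chr7:65314093-65314332), *Lsr* exon 4 of 10 (57 bases, chr7:30962811-30962867), the next *Lsr* exon (147 bases, chr7:30962098-30962244), all on the minus strand, and *Ildr1* exon 6 of 8 (132 bases, chr16:36721538-36721669, plus strand). Each of the 4 lengths is a multiple of 3, so the reading frame is kept without them.
Tjp1 exon 20: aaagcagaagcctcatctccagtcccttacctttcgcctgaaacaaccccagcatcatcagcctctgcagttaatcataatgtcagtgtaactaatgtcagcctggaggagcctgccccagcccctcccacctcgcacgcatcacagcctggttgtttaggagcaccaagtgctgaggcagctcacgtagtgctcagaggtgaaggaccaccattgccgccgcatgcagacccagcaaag
Lsr 57-base exon: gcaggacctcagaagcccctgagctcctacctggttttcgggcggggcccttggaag
Lsr 147-base exon: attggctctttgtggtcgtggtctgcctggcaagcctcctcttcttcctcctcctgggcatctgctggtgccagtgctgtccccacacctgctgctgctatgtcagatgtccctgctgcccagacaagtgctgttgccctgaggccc
Ildr1 exon 6: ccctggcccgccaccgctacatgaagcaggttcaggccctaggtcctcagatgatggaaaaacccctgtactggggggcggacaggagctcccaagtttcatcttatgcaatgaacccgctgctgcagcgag
The *Tjp1* exon encodes the alpha domain of ZO-1, whose presence is known to mark most epithelia and whose absence is known from endothelium. Only ENSMUST00000102592 among the listed transcripts holds it, with 49.7%, 53.7% and 53.3% of *Tjp1* FPKM in wildtype and 46.6%, 58.7% and 43.9% in *Pou4f3(Δ/+)*. The most abundant form without it, ENSMUST00000032729, took 38.3% on average, and ENSMUST00000206612, annotated to nonsense-mediated decay and also without it, 8.02%. Forms with and without the exon were thus abundant in each sample, and the *Pou4f3(Δ/+)* shares spread on both sides of the wildtype ones.

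The 147-base *Lsr* exon is left out of ENSMUST00000098553, the shortest angulin-1 transcript with counts above 0. Transcripts with it made up 72.0%, 83.0% and 62.1% of *Lsr* FPKM in wildtype and 85.6%, 91.2% and 72.1% in *Pou4f3(Δ/+)*. The short form held 27.6% ± 10.5 of wildtype *Lsr* FPKM against 17.01% ± 9.80 in *Pou4f3(Δ/+)* (SD, 3 samples each, two-sided exact permutation p = 0.2), with overlapping groups. The 57-base exon was in 22.5% to 32.1% of *Lsr* FPKM, and *Ildr1* exon 6, spliced as shown, in 82.7% to 97.6% of *Ildr1* FPKM.

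*Ocln* and *Marveld2* were divided less evenly from sample to sample. The *Ocln* transcript ENSMUST00000159459, which lacks a 673-base coding exon of ENSMUST00000069756, kept 37.6% to 42.6% of *Ocln* FPKM in every sample. The remainder shifted among the other 3, and ENSMUST00000160859 had 17.9%, 22.3% and 3.37% in wildtype and 0.437%, 6.97% and 0% in *Pou4f3(Δ/+)*. For *Marveld2*, ENSMUST00000022137 had 45.4% to 100% and ENSMUST00000163163 from 0% to 54.6%. The depth behind these shares is low, at 0 to 36.2 counts for ENSMUST00000163163, and the counts of transcripts that share exons are estimates. A shift of counts between transcripts of unequal length also moves a summed FPKM, which bears on the *Ocln* to *Marveld2* ratio above.

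**Figure D4:**
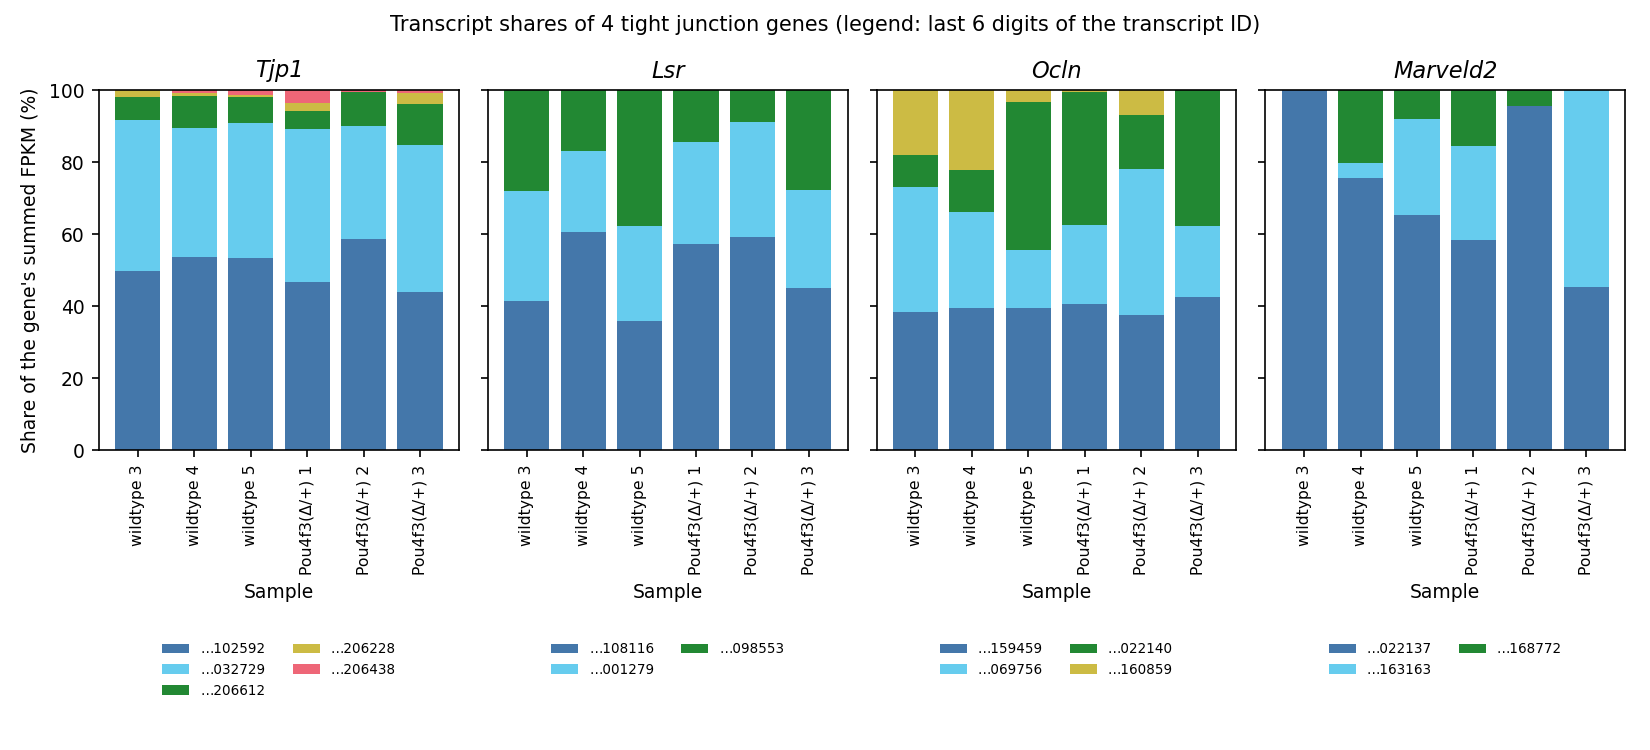
Share of each transcript in the summed FPKM of its gene (y axis, percent) for *Tjp1*, *Lsr*, *Ocln* and *Marveld2* in the 6 samples, 1 stacked bar for each sample. The transcript with the highest mean share runs from 37.6% to 42.6% for *Ocln* and from 43.9% to 58.7% for *Tjp1*. It runs from 45.4% to 100% for *Marveld2* and from 35.75% to 60.5% for *Lsr*. Another transcript is larger for *Ocln* in wildtype replicate 5 and *Pou4f3(Δ/+)* replicate 2. The same holds for *Marveld2* in *Pou4f3(Δ/+)* replicate 3 and for *Lsr* in wildtype replicate 5.

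Of 61 other tight junction genes listed in the files, 51 could be tested and 0 were called by edgeR, while 4 had an unadjusted p under 0.05, which 7.64% of all genes had. Among the 51, 34 were lower and 17 higher in *Pou4f3(Δ/+)*, with a median log2 fold change of -0.07, where 50.6% of all genes were lower. The most abundant were *Ybx3* at 115 FPKM, *Vasp*, *Jam3*, *Arhgef2*, *Sympk*, *Cldn13*, *Marveld1*, *Jam2*, *Amotl2* and *Mpdz*. *Cldn13*, an abundant claudin, was at 26.2, 32.4 and 18.7 FPKM in wildtype and 45.6, 42.0 and 32.0 FPKM in *Pou4f3(Δ/+)* (log2 fold change 0.64, SE 0.20, edgeR adjusted p = 0.643). Its values overlapped between *Pou4f3(Δ/+)* replicate 3 and wildtype replicate 4, and its 2 highest samples are also the highest for 6 of 7 erythroid markers, *Hba-a1* among them and *Hba-a2* the exception, and the list summed to 15230.2 and 17782 FPKM in *Pou4f3(Δ/+)* replicates 1 and 2 against 12459 in *Pou4f3(Δ/+)* replicate 3 and 11547 to 13419 in wildtype. The part of erythroid cells in *Cldn13* was not tested.

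Groups did not overlap in CPM for 5 of the 51, all lower in *Pou4f3(Δ/+)*, where 6.59% of all genes were lower and 6.07% higher without overlap. They were *Ildr2*, the third angulin, the myelin and kidney claudin *Cldn19*, the polarity genes *Pard6g* and *Prkci*, and *Marveld1*. In FPKM the groups overlapped for *Ildr2* and *Prkci*. *Ildr2* was at 6.72, 7.94 and 7.05 FPKM in wildtype and 5.53, 4.23 and 7.07 in *Pou4f3(Δ/+)* (log2 fold change -0.38, SE 0.14, edgeR adjusted p = 0.643), and without *Pou4f3(Δ/+)* replicates 1 and 2 its log2 fold change was -0.09. *Cldn19* was at 9.39, 9.63 and 10.8 FPKM in wildtype and 8.32, 6.31 and 9.12 in *Pou4f3(Δ/+)* (log2 fold change -0.29, SE 0.12, edgeR adjusted p = 0.643), and -0.15 without *Pou4f3(Δ/+)* replicates 1 and 2. The log2 fold change of *Marveld1* was -0.12 with all samples, -0.24 without *Pou4f3(Δ/+)* replicates 1 and 2, and -0.057 without *Pou4f3(Δ/+)* replicate 3. That of *Pard6g* was -0.248 with all samples and -0.216 without *Pou4f3(Δ/+)* replicates 1 and 2. For *Prkci* these values were -0.162 and -0.155. *Ildr2* and *Cldn19* were lowest in *Pou4f3(Δ/+)* replicate 2, as were the Schwann and strial marginal lists.

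**Figure D5:**
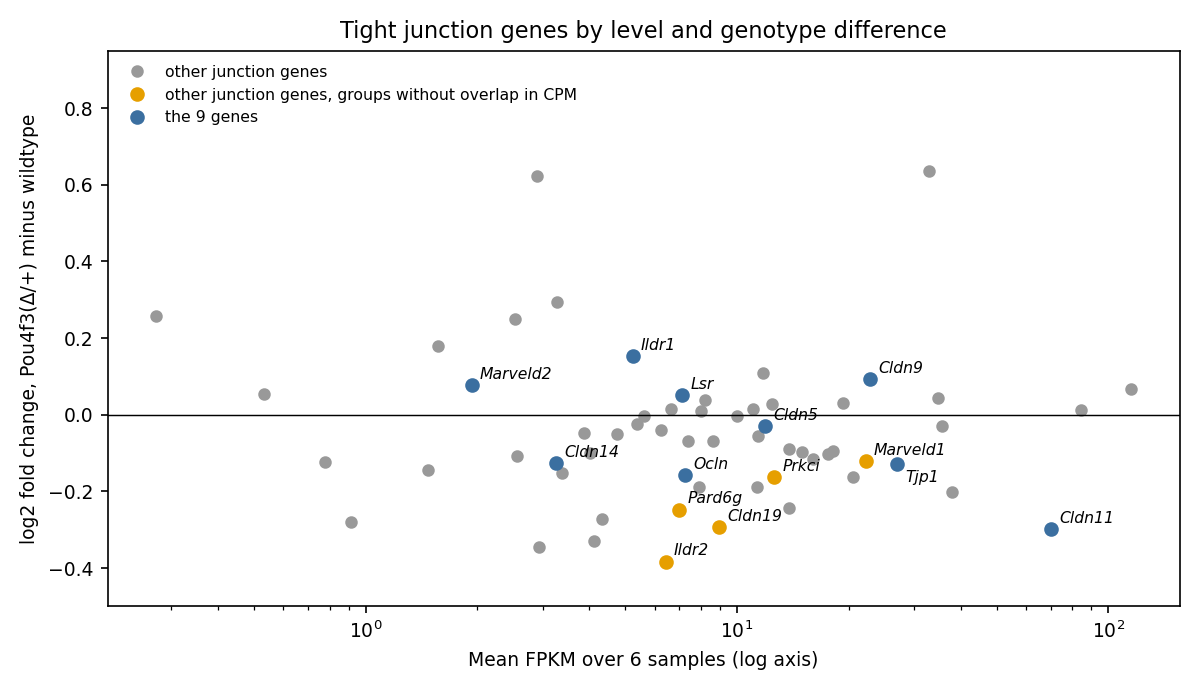
Mean FPKM over the 6 samples (x axis, log) against the log2 fold change of *Pou4f3(Δ/+)* over wildtype (y axis, edgeR) for the 9 genes (blue) and 51 other tight junction genes (grey, or orange where groups do not overlap in CPM). The 9 genes lie between -0.30 and 0.15, and the 5 orange genes all lie below 0; none was called.

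Over the 6 samples, log2 CPM of the 9 genes went together only in part. The highest Pearson r was 0.82 for *Cldn9* with *Marveld2* and then 0.78 for *Cldn11* with *Ocln*, and the lowest was -0.58 for *Cldn5* with *Lsr*. Among 13958 other genes, the profile nearest to *Cldn11* was that of *Abca4* (r = 0.99), nearest to *Cldn9* that of *Tcf4*, to *Cldn5* that of *2210418O10Rik*, to *Ocln* that of *Tor1aip2*, to *Tjp1* that of *Zfp423* and to *Ildr1* that of *Fam212b*. *Cldn11* had 147 genes with r over 0.95 and *Ildr1* had 5. With 6 samples that share the same 2 deviating libraries, these are descriptions only.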

How the data were processed

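Bulk cochlear RNA-seq (2 months, 3 wildtype and 3 *Pou4f3(Δ/+)*) was used as deposited. The authors deposited expected counts per transcript, estimated rather than whole numbers (82.2% of those above 0 are not whole), and FPKM values per transcript. The aligner and counter are not given in the sources used here; the submitters' processing notes name DESeq2 and the build mm8, whereas 99.5% of the 128603 transcript IDs are in GENCODE M21 (GRCm38), from which positions and sequences were taken. Summed counts were 14295069 to 17696784 per sample.

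Counts and FPKM were summed by gene symbol. Rounded counts were tested with edgeR 4.0.16 (R 4.3.3): filterByExpr (minimum count 10, minimum total 15), TMM, quasi-likelihood F test over all 6 samples, Benjamini-Hochberg adjustment over all features, threshold 0.05. SEs are the log2 fold change over the root of F; 95% intervals come from the same fit. Ratios and transcript shares (mean share of at least 10%) were tested by two-sided exact permutation (SciPy 1.17.1). The edgeR tests of genes and transcripts were checked on simulated counts, in which no library deviated from its group. The alternatives had no such check. Alternatives were DESeq2 1.42.0, DESeq2 size factors, upper-quartile scaling, other filters, limma-trend 3.58.1 on log2(FPKM + 0.1, 0.5 or 1), and samples left out.

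Named genes are the 9, and from the other tight junction genes the 10 most abundant and those without overlap in CPM with the largest changes, the closest profiles (mean of at least 50 counts), and cell type markers. The members and lists were chosen with earlier results of these data known. The exon shares were added after the transcript values were seen.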

Additional observations from a re-analysis of the deposited data

How the results depend on the processing

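Genotype calls over all genes, 0 by edgeR, depended on the setting: DESeq2 called 64 genes, no filter 9, limma-trend with a pseudocount of 0.1 called 1, and edgeR without *Pou4f3(Δ/+)* replicates 1 and 2 called 6. Leaving out 1 sample gave 0 to 193 genes, with 193 without *Pou4f3(Δ/+)* replicate 3 and 3 without wildtype replicate 4. At transcript level DESeq2 called 130 and leaving out 1 sample gave 0 to 3. None of these calls was 1 of the 9 genes or of their transcripts, over 15 alternatives for the genes, where the smallest adjusted p was 0.110 (*Cldn11*, edgeR without *Pou4f3(Δ/+)* replicate 3). Of 135 alternative values for the 9 genes, 9 changed sign, of *Cldn5*, *Lsr*, *Cldn14* and *Marveld2*. Without *Pou4f3(Δ/+)* replicates 1 and 2, where the lone *Pou4f3(Δ/+)* sample is assumed to vary like the others, the log2 fold change was 0.42 for *Cldn5*, -0.16 for *Lsr*, 0.093 for *Cldn14* and -0.0025 for *Marveld2*. Without wildtype replicate 3 it was 0.0083 for *Cldn5* and -0.047 for *Lsr*, without *Pou4f3(Δ/+)* replicate 1 it was 0.059 for *Cldn5*, and without *Pou4f3(Δ/+)* replicate 2 it was 0.13 for *Cldn5* and -0.16 for *Lsr*. Leaving out 1 sample moved *Cldn5* from -0.31 to 0.13 and *Lsr* from -0.16 to 0.15. The abundance order kept 1 of 9 ranks in CPM, which does not allow for transcript length, and 4 of 9 with the most abundant transcript alone. In CPM *Tjp1* came before *Cldn11* at the top. At the other end *Cldn14* (mean 4.72) lay below *Marveld2* (mean 5.40), with overlapping ranges. The cause of the changed calls was not tested. No paired analysis was possible because the labels give a replicate number within each genotype but name no pairs of samples. *Cldn14* and *Marveld2* had the fewest counts, from which counting error alone gives a coefficient of variation of 11.5% and 10.7%.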
